A study of Mus musculus with 13 samples.

Results

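Nicotinamide adenine dinucleotide (NAD) metabolism was examined through 10 genes: Nmrk1, Nampt, Nmnat1, Nmnat2, Nmnat3, Nadsyn1, Nadk, Nnt, Cd38 and Sarm1. Every probe set that the platform annotation gives to exactly 1 of these genes was taken, which gave 9 probe sets for 9 of the 10 genes, of 21789 probe sets with a single gene symbol. The annotation used here pairs no probe set with Cd38, an enzyme that cleaves NAD, and Cd38 was not analysed here. The group was put together around Nmrk1, which an earlier analysis of these arrays had picked out for its higher level in heterozygous mice. The genotype differences below are therefore given as descriptions with no test, and the tests concern the difference between the experiments and the change of the genotype difference from one experiment to the other.

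Whole hippocampi came from mice labelled C57BL/6J, aged 1 to 2 months and fed a standard diet, and were hybridised to 13 arrays, 1 a sample. Wild-type mice (Kmt2d+/+) were compared with Kmt2d+/βGeo mice, a model of Kabuki syndrome that is heterozygous for a disrupted allele of the histone methyltransferase gene Kmt2d. Experiment 1 had 4 wild-type and 3 Kmt2d+/βGeo samples without injections, and experiment 2 had 3 of each genotype, all given 3 injections of saline a day as the vehicle controls of a further experiment. The sex label was female for 12 samples and unknown for replicate 3 of the uninjected wild type. The labels do not say that each sample is a separate animal, so p-values measure the spread between these samples, which may be technical. The injections and whatever else differed between the experiments cannot be told apart.

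NAD carries electrons between metabolic enzymes and is also cut up by signalling enzymes, so cells rebuild it continuously. Most is recycled from nicotinamide by Nampt, some from nicotinamide riboside by Nmrk1, and the Nmnat enzymes complete both routes in different compartments of the cell. In neurons, Nmnat2 keeps axons alive and Sarm1, an NAD-cleaving enzyme, executes their destruction when NAD synthesis fails.

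The arrays of each experiment resembled each other more than those of the other experiment. Over the 21789 probe sets, pairs of arrays from different experiments correlated at 0.932 to 0.955. Pairs from experiment 1 correlated at 0.991 to 0.998, and pairs from experiment 2 at 0.986 to 0.994. The values of experiment 2 were also compressed: the SD over all probe sets of an array was 2.13 to 2.17 log2 units, against 2.28 to 2.35 in experiment 1. Kmt2d, read as a check of the labels, has 2 probe sets, of which one was lower in Kmt2d+/βGeo samples (difference -0.53 ± 0.08 SE, 69.3% of wild type) and the other was not (0.07 ± 0.07). Hippocampal markers averaged 10.16 to 10.52 log2 units on the arrays of experiment 1 and 9.84 to 10.09 in experiment 2. Wild-type replicate 2 of experiment 1 stood apart, with a striatal marker mean of 11.39 log2 units, where the remaining 12 arrays had 8.26 to 8.64.

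The promoter sequences of 4 members are shown because these genes carry the results: Nmrk1, the gene around which the group was formed, Nampt and Nmnat1, which fell most between the experiments, and Nmnat3, which rose under every scaling. Each run is the 250 bases before the first listed transcription start, 5′ to 3′ on the gene's own strand, from RefSeq on build GRCm38.p6. Capitals mark the GC box GGGCGG and the CCAAT box, each searched on both strands (CCGCCC and ATTGG for the reverse), and no 2 of these matches overlapped.
Nmrk1, chr19:18631766-18632015, plus strand: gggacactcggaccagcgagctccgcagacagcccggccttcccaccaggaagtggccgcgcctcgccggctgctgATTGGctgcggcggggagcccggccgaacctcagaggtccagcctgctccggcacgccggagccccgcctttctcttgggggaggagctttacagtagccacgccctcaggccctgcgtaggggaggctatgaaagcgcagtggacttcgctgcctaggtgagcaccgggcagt
Nampt, chr12:32820085-32820334, plus strand: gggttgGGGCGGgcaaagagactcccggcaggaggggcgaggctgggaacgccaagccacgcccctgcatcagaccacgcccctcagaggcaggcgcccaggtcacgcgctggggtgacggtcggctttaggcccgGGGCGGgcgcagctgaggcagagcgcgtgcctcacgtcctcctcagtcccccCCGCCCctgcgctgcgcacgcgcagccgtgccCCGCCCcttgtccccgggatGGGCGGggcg
Nmnat1, chr4:149485211-149485460, minus strand: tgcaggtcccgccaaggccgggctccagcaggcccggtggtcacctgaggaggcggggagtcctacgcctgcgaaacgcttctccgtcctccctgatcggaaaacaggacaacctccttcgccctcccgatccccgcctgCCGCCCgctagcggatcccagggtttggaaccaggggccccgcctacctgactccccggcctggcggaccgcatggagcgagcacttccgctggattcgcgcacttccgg
Nmnat3, chr9:98296320-98296569, plus strand: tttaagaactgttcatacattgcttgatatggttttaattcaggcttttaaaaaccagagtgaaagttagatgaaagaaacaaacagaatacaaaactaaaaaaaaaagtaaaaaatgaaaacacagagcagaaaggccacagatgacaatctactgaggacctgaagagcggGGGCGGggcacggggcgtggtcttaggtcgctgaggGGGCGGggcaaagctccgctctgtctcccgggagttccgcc

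The Nmrk1 window holds 1 CCAAT box and no GC box, the Nampt window 5 GC boxes, the Nmnat1 window 1 and the Nmnat3 window 2. Over 32841 such windows of mouse genes, 32.7% hold a GC box and 33.9% a CCAAT box. CG dinucleotides numbered 27 in the Nampt window, 24 in that of Nmnat1, 21 in that of Nmrk1 and 9 in that of Nmnat3, against a median of 6 over all windows. Of the 9 members with an entry, Nmrk1, Nampt, Nmnat1, Nmnat2, Nmnat3, Nadsyn1, Nadk, Cd38 and Sarm1, 5 have a GC box and 2 a CCAAT box before their first listed start, and the E-box CACGTG, which reads the same on both strands, was found in none of these windows and in that of the second listed start of Nadk. No binding was measured, and these matches describe the sequences only.

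Nmrk1 encodes the kinase that phosphorylates nicotinamide riboside, and it was higher in Kmt2d+/βGeo samples in both experiments. In experiment 1 wild-type samples had 7.34, 7.18, 7.35 and 7.47 log2 units and Kmt2d+/βGeo samples 7.75, 7.33 and 7.71. Heterozygous replicates 1 and 3 lay above all wild-type samples, and replicate 2 lay among them. In experiment 2 wild-type samples had 6.48, 6.17 and 6.46 and Kmt2d+/βGeo samples 6.59, 6.99 and 6.89, so that the genotypes did not overlap. The difference was 0.26 ± 0.12 (SE, 3 and 4 samples) in experiment 1 and 0.46 ± 0.13 (SE, 3 and 3 samples) in experiment 2. Over both experiments it was 0.35 ± 0.09, a level 1.28-fold that of wild type, and 12 of the 21789 probe sets had a higher value. With array weights it was lower, at 0.22 ± 0.09. It was 0.30 to 0.43 with any single array left out, 0.34 without wild-type replicate 2 of experiment 1 and 0.31 without the 3 arrays that an earlier analysis set apart (wild-type replicates 2 and 3 of experiment 1 and heterozygous replicate 3 of experiment 2). These values chose the gene and are no evidence for the genotype difference. With limma, 0 of the 21789 probe sets passed an adjusted p of 0.05 for this genotype difference (0%), and 1130 had an unadjusted p under 0.05.

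The order of the Nmrk1 group means, from low to high, was wild type of experiment 2 (6.37 ± 0.17, SD), Kmt2d+/βGeo of experiment 2 (6.83 ± 0.21), wild type of experiment 1 (7.33 ± 0.12) and Kmt2d+/βGeo of experiment 1 (7.60 ± 0.23). The groups of experiment 1 overlapped, and the other neighbours in this order did not. The genotype difference was 0.19 ± 0.18 larger in experiment 2 than in experiment 1, with a 95% interval of -0.19 to 0.58 and limma adjusted p = 0.831, so that the arrays do not show the experiments to differ in it.

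**Figure D1:**
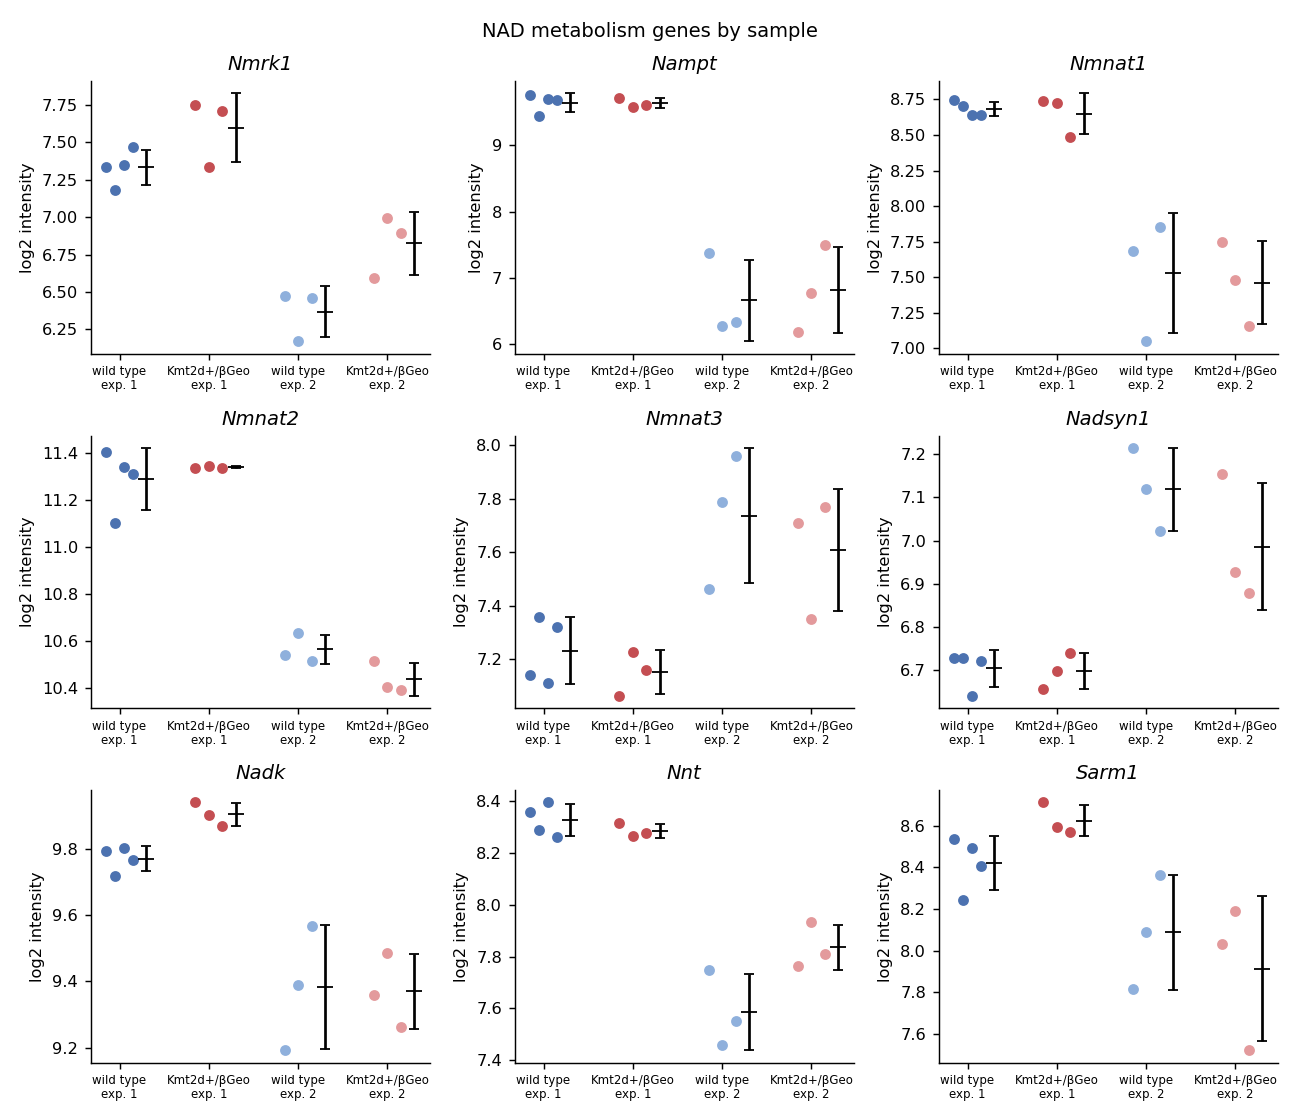
Log2 intensity (vertical axis) of each of the 9 probe sets in every sample, by genotype and experiment; points are samples and bars beside them the group mean ± SD. The mean of Nmrk1 is higher in Kmt2d+/βGeo samples within each experiment, with overlap of the genotypes in experiment 1. Nampt lies between 9.44 and 9.76 in experiment 1 and between 6.18 and 7.49 in experiment 2, and the vertical scale differs between genes.

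The genes whose values most resembled those of Nmrk1 over the 13 arrays, after centring within each experiment, were Neurod6, a transcription factor of pyramidal neurons (Pearson r = 0.942), the sulfotransferase Ust (0.923), Wasf1, a regulator of actin (0.915), Nell2, a secreted glycoprotein of neurons (0.907), and Fstl5, a secreted protein of the follistatin-like family (0.905). The correlations were 0.942, 0.833, 0.923, 0.773 and 0.831 when each of the 4 groups was centred, which removes the genotype. They are given as a description and were picked as the highest of all genes on the same 13 arrays. The genotype differences of these 5 genes were 0.20, 0.23, 0.13, 0.17 and 0.31 in the same order. Between the experiments (2 minus 1), Neurod6 differed by 0.42, whereas Nmrk1 differed by -0.87 and the remaining 4 by -0.56 to -1.29. Neurod6 was among the hippocampal markers, whose 7 measured genes of 8 (8 probe sets) averaged 10.16 to 10.35 log2 units in wild-type and 10.30 to 10.52 in Kmt2d+/βGeo samples of experiment 1. In experiment 2 they averaged 9.84 to 9.99 and 9.94 to 10.09. Dentate granule cell markers (6 of 6 measured) averaged 9.08 to 9.69 and 9.89 to 9.90 in experiment 1, and 8.61 to 9.0 and 8.69 to 8.99 in experiment 2. The part of these lists in the Nmrk1 difference was not tested. In bulk tissue, fewer cells of a type and less RNA per cell cannot be told apart.

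**Figure D2:**
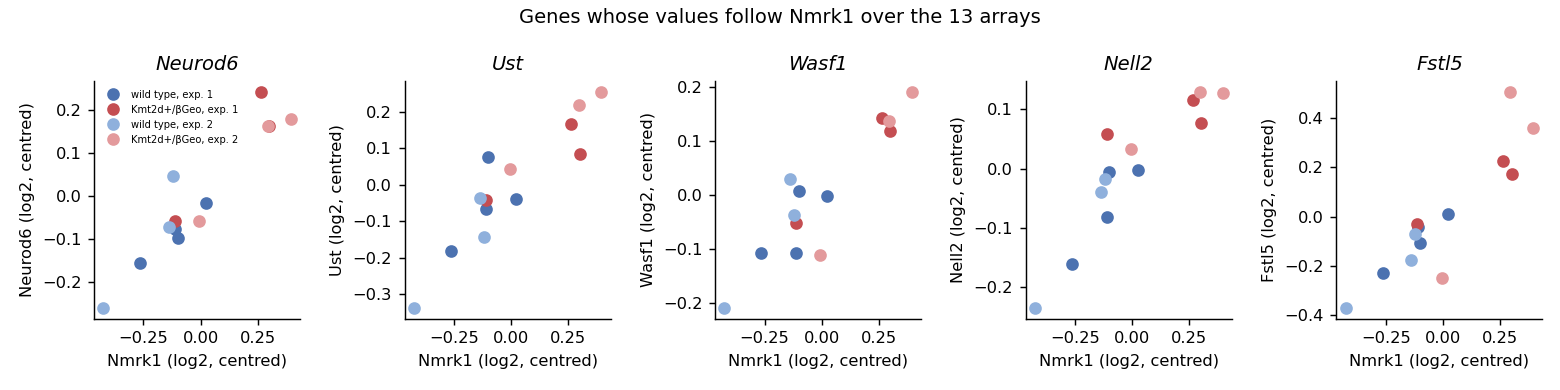
Log2 intensity centred within each experiment, Nmrk1 on the horizontal axis and each of the 5 most similar genes on a vertical axis, with 1 point per sample coloured by group. Heterozygous samples with high Nmrk1 are high for all 5 genes, and wild-type replicate 2 of experiment 2, at -0.43 for Nmrk1, is the lowest sample in each panel.

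The remaining 8 members showed smaller genotype differences over both experiments, from -0.10 for Nmnat3 to 0.09 for Nnt, with 4 above 0 and 4 below. The median over all 9 members was 0.03, against 0.002 over all probe sets. Genotypes did not overlap for 2 of 9 members in experiment 1, Nadk and Sarm1, both higher in Kmt2d+/βGeo samples, where 7.28% of all probe sets did not overlap (4.28% higher). In experiment 2 they did not overlap for 3 of 9, Nmrk1 and Nnt higher and Nmnat2 lower, where the share of all probe sets was 9.52% (4.38% higher and 5.14% lower). No member was separated in both experiments, against 0.312% of all probe sets, and since the members were gathered with this contrast in view, nothing is read from these counts.

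Nnt encodes the transhydrogenase of the inner mitochondrial membrane, which makes NADPH, and C57BL/6J mice are known to carry a deletion within this gene. Wild-type samples of experiment 1 had 8.36, 8.29, 8.39 and 8.26 log2 units and Kmt2d+/βGeo samples 8.31, 8.26 and 8.28. These overlapped throughout. In experiment 2 wild-type samples had 7.75, 7.46 and 7.55 and Kmt2d+/βGeo samples 7.76, 7.93 and 7.81, with the highest wild-type sample just below the lowest heterozygous sample. The genotype difference was -0.04 ± 0.08 in experiment 1 and 0.25 ± 0.09 in experiment 2. Which part of the transcript this probe set covers was not known here.

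For Sarm1, the NAD-cleaving enzyme of axon degeneration, the genotype difference of experiment 2 turned on replicate 3 of either genotype. In experiment 1 wild-type samples had 8.54, 8.24, 8.49 and 8.41 log2 units and Kmt2d+/βGeo samples 8.71, 8.59 and 8.57, without overlap. In experiment 2 wild-type samples had 7.81, 8.09 and 8.37 and Kmt2d+/βGeo samples 8.03, 8.19 and 7.52. Heterozygous replicates 1 and 2 lay within the wild-type range there, and replicate 3, an array that an earlier analysis set apart, lay below it. Wild-type replicate 3, at 8.37, lay above all heterozygous samples. The genotype difference was 0.21 ± 0.15 in experiment 1 and -0.18 ± 0.16 in experiment 2, the latter with replicate 3 of both genotypes included. Nadk, the cytosolic kinase that turns NAD into NADP, was 9.79, 9.72, 9.80 and 9.77 in wild-type against 9.94, 9.90 and 9.87 in Kmt2d+/βGeo samples of experiment 1, and its difference was 0.13 ± 0.09 there and -0.01 ± 0.10 in experiment 2. Nmnat2, the cytosolic and axonal Nmnat enzyme, differed by 0.05 ± 0.08 in experiment 1 and by -0.13 ± 0.09 in experiment 2. Its 3 heterozygous values in experiment 1 spanned 0.0087 log2 units.

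Whether any of these changes from experiment 1 to experiment 2 exceeded the spread was tested over all probe sets. None of the 9 members passed: with limma 0 of 21789 probe sets passed the threshold of 0.05 (0%), with 0.519 the lowest adjusted p, and 1467 had an unadjusted p under 0.05. For Sarm1 the change was -0.38 ± 0.22 (limma adjusted p = 0.756, 95% interval -0.84 to 0.08). It was -0.18 without heterozygous replicate 3 of experiment 2, -0.24 without wild-type replicate 3 of experiment 2 and -0.13 without the 3 arrays set apart. The change was 0.29 ± 0.12 for Nnt (limma adjusted p = 0.73, unadjusted p = 0.0301, 95% interval 0.03 to 0.55). For Nampt the interval reached from -0.66 to 0.99, so that even sizeable changes were not detectable with these arrays.

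**Figure D3:**
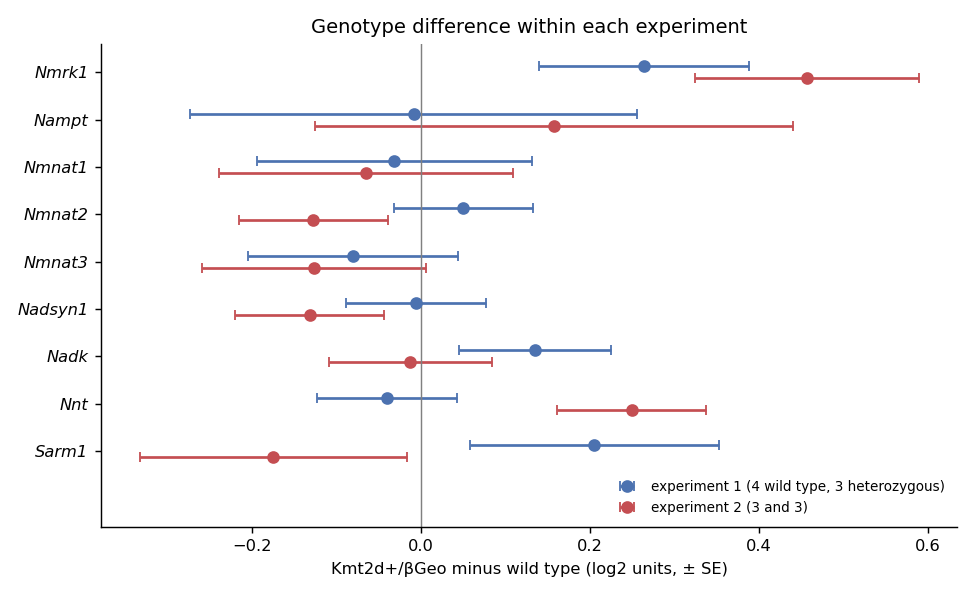
Kmt2d+/βGeo minus wild type in log2 units (horizontal axis) for each of the 9 genes, with standard errors from the model of the 4 groups, in experiment 1 and in experiment 2. Nmrk1 is above 0 in both experiments (0.26 and 0.46), and Nnt is near 0 in experiment 1 and at 0.25 in experiment 2. Sarm1 is at 0.21 in experiment 1 and at -0.18 in experiment 2. There heterozygous replicate 3 lay below the wild-type range and wild-type replicate 3 above the heterozygous range.

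Between the experiments every member differed, and 7 of 9 were lower in the saline-injected samples of experiment 2. With genotype as a term in the model, 9 of 9 members passed an adjusted p of 0.05 with limma, 2 higher and 7 lower. The background was high: 77.4% of all probe sets passed, 41.9% higher and 35.5% lower, so the count of calls says little about these genes. The median difference was -0.60 over the members and 0.07 over all probe sets, for which 5% lay below -1.32 and 5% above 0.81. All probe sets were also split into 4 bins of like size by mean level in experiment 1. From dim to bright their medians were 0.27, 0.26, -0.19 and -0.54, and they held 0, 3, 3 and 3 members. The 7 and 6 samples did not overlap for 7 of 9 members, against 53.4% of all probe sets (25.8% higher and 27.7% lower), with overlap for Nmnat3 and Sarm1. In wild-type samples 8 of 9 members passed, 2 higher and 6 lower, against 69.6% of all probe sets (37.3% higher and 32.3% lower). In Kmt2d+/βGeo samples 9 of 9 passed, against 62.9% (31.5% higher and 31.3% lower). The scaling of the arrays enters these values. The median of an array lay between 6.74 and 6.90 in experiment 1 and between 7.04 and 7.08 in experiment 2, and centring each array on its median moved the median difference of all probe sets from 0.07 to -0.18. Of the probe sets called, 54.2% were higher as deposited, 28.8% after centring and 41.4% after quantile normalisation of all arrays together, where 64.6% of all probe sets passed (26.7% higher and 37.8% lower).

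Nampt, the rate-limiting enzyme of recycling from nicotinamide, fell furthest of the members. It had 9.76, 9.44, 9.70 and 9.69 log2 units in wild-type and 9.72, 9.58 and 9.62 in Kmt2d+/βGeo samples of experiment 1. In experiment 2 it had 7.37, 6.27 and 6.32 in wild-type and 6.18, 6.77 and 7.49 in Kmt2d+/βGeo samples. The highest sample of experiment 2 lay far below the lowest of experiment 1. The difference was -2.92 ± 0.19, or 13.3% of the level of experiment 1 (limma adjusted p = 7.13e-10, n = 13), and -2.98 relative to the median of all probe sets. Only 20 of the 21789 probe sets had a more negative difference. It was -2.99 ± 0.26 in wild-type and -2.83 ± 0.28 in Kmt2d+/βGeo samples, and -2.92 after quantile normalisation.

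Nampt was also among the most variable probe sets within the groups of experiment 2. The SD within groups was 0.64 log2 units there and 0.12 in experiment 1, a ratio of 5.37, against a median ratio of 1.52 over all probe sets. Only 22 probe sets had a larger SD in experiment 2, whereas in experiment 1 the SD of Nampt was larger than that of 63.5% of probe sets. In wild type of experiment 2, replicate 1 stood high at 7.37, while the heterozygous samples were spread from 6.18 to 7.49. The Nampt group means within each experiment overlapped in their ranges, with genotype differences of -0.01 ± 0.26 and 0.16 ± 0.28.

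The 3 Nmnat enzymes, which join the nucleotide to ATP to finish NAD, did not move together. Nmnat1, the nuclear enzyme, had 8.64 to 8.75 log2 units in wild-type and 8.49 to 8.74 in Kmt2d+/βGeo samples of experiment 1, and 7.05 to 7.85 and 7.16 to 7.75 in experiment 2. It fell by 1.17 ± 0.12 on the log2 scale to 44.4% of the level of experiment 1 (limma adjusted p = 1.33e-07). Its spread widened as well, with an SD within groups of 0.10 in experiment 1 and 0.36 in experiment 2, larger than that of 98.1% of probe sets. Nmnat2 had 11.10 to 11.41 and 11.34 to 11.35 in experiment 1 and 10.52 to 10.63 and 10.39 to 10.51 in experiment 2. It fell by 0.81 ± 0.06 (limma adjusted p = 6.49e-09), and its SD in experiment 2, 0.07, was larger than that of 5.45% of probe sets. Nmnat3, the mitochondrial enzyme, rose. It had 7.11 to 7.36 and 7.06 to 7.23 in experiment 1 and 7.46 to 7.96 and 7.35 to 7.77 in experiment 2, a difference of 0.48 ± 0.09 (limma adjusted p = 0.000116) that was 0.24 with arrays centred on their median and 0.38 after quantile normalisation. Heterozygous replicate 2 of experiment 2, at 7.35, lay just below wild-type replicate 2 of experiment 1, at 7.36.

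Nmrk1, which was not chosen on this contrast, fell by 0.87 ± 0.09 on the log2 scale, to 54.6% of the level of experiment 1 (limma adjusted p = 2.55e-07). The difference was -0.96 ± 0.12 in wild-type and -0.77 ± 0.13 in Kmt2d+/βGeo samples. All 6 samples of experiment 2 lay below all 7 of experiment 1. With probe sets split into 4 bins of like size by mean level in experiment 1, the second bin held Nmrk1, Nmnat3 and Nadsyn1. This bin ran from 5.842 to 7.585 log2 units and had a median difference of 0.26. Nmrk1, with group means of 7.33 and 7.60 in experiment 1, lay near its upper edge, and the median of the next bin was -0.19. Probe sets as bright as Nmrk1 thus lay where the bin medians passed from above 0 to below. In the brightest bin, which holds Nampt, Nmnat2 and Nadk, the median was -0.54.

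Nadsyn1, which makes NAD from its acid precursor with glutamine as nitrogen donor, had 6.64 to 6.73 and 6.66 to 6.74 log2 units in experiment 1 and 7.02 to 7.21 and 6.88 to 7.15 in experiment 2. It rose by 0.36 ± 0.06 (limma adjusted p = 6.01e-05) as deposited, but did not pass with arrays centred on their median (0.11, limma adjusted p = 0.126) or after quantile normalisation (0.10, limma adjusted p = 0.156). Nadk fell by 0.46 ± 0.07 on the log2 scale (limma adjusted p = 1.11e-05), and after quantile normalisation its difference was -0.15 (limma adjusted p = 0.0509). Nnt fell by 0.60 ± 0.07 (limma adjusted p = 7.39e-07), with all 6 samples of experiment 2 between 7.46 and 7.93 and all 7 of experiment 1 between 8.26 and 8.39. Sarm1 fell by 0.51 ± 0.11 (limma adjusted p = 0.000795), and the samples of the 2 experiments overlapped between 8.24 and 8.37. In wild-type samples alone the difference in Sarm1 was -0.33 ± 0.15 (limma adjusted p = 0.058) and in Kmt2d+/βGeo samples -0.71 ± 0.16 (limma adjusted p = 0.00121). These come from the model of the 4 groups. With the 7 wild-type arrays fitted alone, Sarm1 passed (-0.33, limma adjusted p = 0.0415). The difference between the genotypes in this value is the Sarm1 interaction given above, which did not pass.

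**Figure D4:**
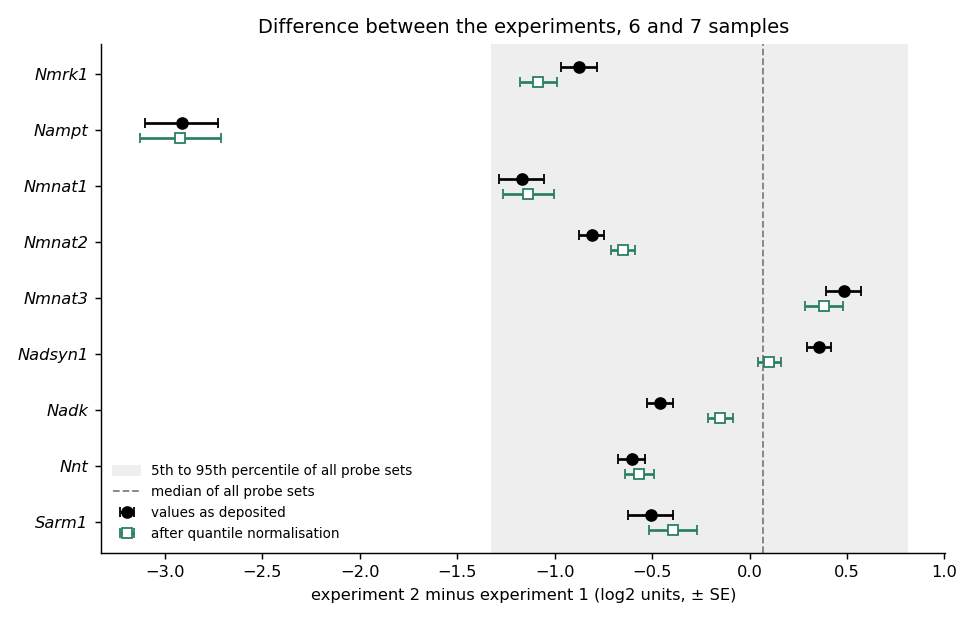
Experiment 2 minus experiment 1 in log2 units (horizontal axis, ± SE) for the 9 genes, as deposited and after quantile normalisation, over a band from the 5th to the 95th percentile of all probe sets as deposited and a dashed line at their median of 0.07. Nampt, at -2.92, lies outside the band, and the other 8 genes lie within it.

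Several marker lists of cell types and neighbouring tissue moved between the experiments too, where 77.4% of all probe sets passed, 41.9% higher and 35.5% lower. Choroid plexus markers differed by a mean of -1.01 (4 of 8 lower past the threshold) and dentate granule cell markers by -0.82 (5 of 6 lower). Astrocyte markers differed by a mean of -0.86, with 5 of 5 probe sets lower past the threshold, and averaged 10.29 to 10.61 log2 units in experiment 1 and 9.56 to 9.74 in experiment 2. Oligodendrocyte markers differed by -0.75 (4 of 5 lower past the threshold) and averaged 10.95 to 11.52 and 9.95 to 10.77. Microglial markers differed by 0.24 (3 higher and 2 lower past the threshold of 6) and averaged 8.74 to 8.90 and 8.92 to 9.15. Cerebellar markers were higher by a mean of 0.61 (4 of 4) and averaged 5.86 to 5.93 and 6.10 to 7.30. Hippocampal markers differed by -0.36 (4 lower and 1 higher past the threshold of 8) and endothelial markers by -0.15 (3 lower and 1 higher of 4). Of the striatal markers, with a mean difference of -0.43, 0 of 6 passed, and the 1 blood marker measured (-0.08) did not pass. The part of these lists in the NAD genes' differences was not tested.

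Of 59 other genes of NAD synthesis, transport and use, 56 were measured, with 57 probe sets. Between the experiments 21 of these rose and 24 fell past the threshold, which is 78.9% of them, close to the 77.4% of all probe sets, and their median difference was -0.08. The balance depended on the scaling, with 9 higher and 30 lower when arrays were centred on their median and 15 higher and 21 lower after quantile normalisation. For the change of the genotype difference between the experiments 0 passed with limma. Their genotype differences over both experiments had a median of 0.01 and reached from -0.20 for Slc29a1, a nucleoside transporter, to 0.26 for Parp8, an ADP-ribosyltransferase.

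In the kynurenine route, which makes NAD from tryptophan, 7 of 12 rose and 2 fell, which is 75% past the threshold against 77.4% of all probe sets (41.9% higher and 35.5% lower). Haao, the enzyme that forms the precursor of quinolinic acid, rose by 0.58 ± 0.06 (limma adjusted p = 2.33e-07) and Afmid, an enzyme near the start of the route, by 0.47 ± 0.07. Tdo2, the first enzyme, fell by 0.93 ± 0.15 on the log2 scale (limma adjusted p = 4.19e-05). After quantile normalisation 4 of the 12 rose and 2 fell, against 26.7% and 37.8% of all probe sets, with these 3 genes still on the same side and past the threshold. Among 13 genes of salvage, transport and breakdown 7 rose and 5 fell. This is 92.3% past the threshold, against 77.4% of all probe sets (41.9% higher and 35.5% lower). With quantile normalisation 5 of the 13 rose and 4 fell past the threshold, against 26.7% and 37.8% of all probe sets. Pnp, a phosphorylase of nucleosides that also splits nicotinamide riboside, rose by 1.86 ± 0.11 (limma adjusted p = 1.37e-10), from 7.08 to 7.504 log2 units over the samples of experiment 1 to 8.82 to 9.59 over those of experiment 2. Aspdh rose by 0.88 ± 0.07, and Nadk2, the mitochondrial NAD kinase, fell by 1.25 ± 0.08 on the log2 scale (limma adjusted p = 4.14e-10).

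Of 20 NAD-consuming genes 6 rose and 7 fell, which is 65% past the threshold against 77.4% of all probe sets (41.9% higher and 35.5% lower). After quantile normalisation 5 of the 20 rose and 9 fell past the threshold, against 26.7% and 37.8% of all probe sets. Sirt2, a deacetylase abundant in myelin, rose by 0.68 ± 0.05, and Sirt6, a deacetylase of chromatin, and Parp8 fell by 1.23 ± 0.09 and 0.89 ± 0.07. Among genes counted as NADPH supply, 10 of 12 probe sets of 11 genes fell and 1, for Me3, rose, a share past the threshold of 91.7% against 77.4% of all probe sets, of which 35.5% fell. The median of this list was -0.56. Its probe sets lay in the third and the brightest bin, where the medians of all probe sets were -0.19 and -0.54. Me2 and Mthfd2 lay in the third bin and Idh1 in the brightest. Idh1, the cytosolic isocitrate dehydrogenase, fell by 1.61 ± 0.12 on the log2 scale, from 9.70 to 10.27 over the samples of experiment 1 to 8.15 to 8.93 over those of experiment 2 (limma adjusted p = 5.15e-09). Me2 fell by 1.37 ± 0.07 and Mthfd2 by 1.16 ± 0.10; both are mitochondrial enzymes that work chiefly with NAD rather than NADP. After quantile normalisation 6 of the 12 fell, against 37.8% of all probe sets, and Idh1, Me2 and Mthfd2 were among the 6.

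**Figure D5:**
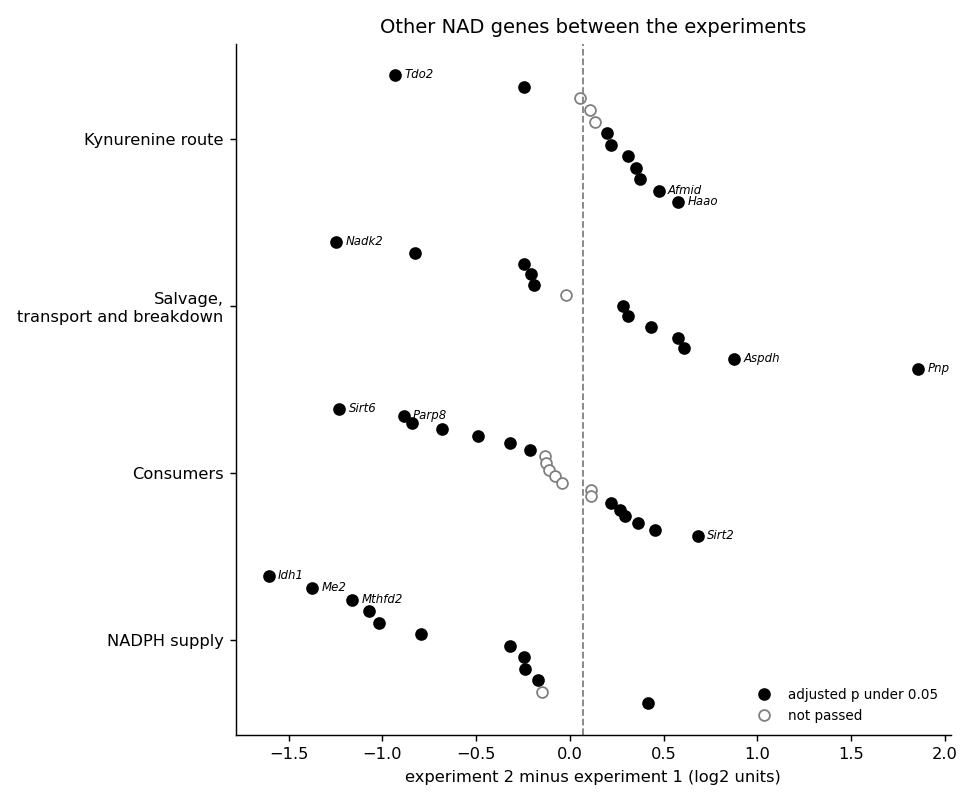
Experiment 2 minus experiment 1 in log2 units (horizontal axis) for each of the 57 probe sets of other NAD genes, grouped by list, with filled points for those past an adjusted p of 0.05 and a dashed line at the median of all probe sets. Pnp stands highest at 1.86, and Idh1 lowest at -1.61.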

How the data were processed

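The deposited table holds log2 values, 1 per probe set and array, which the authors made with RMA (oligo package), per the submitters' processing notes. The sources used here give no version or probe set build, nor whether both experiments were normalised together. RMA equalises arrays and summarises probes by median polish, which can hide part of the spread between samples.

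Of 35556 probe sets, 23410 are in the annotation used, 21789 of them with a single symbol (updated through gene identifiers to RefSeq), and these were tested without a filter. In R 4.3.3, limma 3.58.1 (its functions lmFit and eBayes) gave two-sided tests adjusted by Benjamini-Hochberg, with a threshold of 0.05. The difference between experiments came from genotype plus experiment, and the interaction from the 4 groups. Errors are SE unless an SD is named, and intervals are 95%. The fits were tested on simulated data. Precision is limited by how many arrays there are.

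The members and lists were chosen with earlier results of these data known. All members are named, the 5 genes most correlated with Nmrk1, and from each other list the 3 of lowest p between experiments. Marker lists covered the hippocampus, dentate granule cells, choroid plexus, striatum, microglia, endothelium, oligodendrocytes, astrocytes, blood and cerebellum. Alternatives covered the probe sets tested, dim probe sets, scaling, array weights, the variance prior, replicate numbers as a block and left-out arrays.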

Additional observations from a re-analysis of the deposited data

Results flagged for a closer look

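Nadsyn1 was marked out in the uninjected wild type, where replicate 3, whose sex is unknown, had 6.6409 log2 units, against 6.7208 to 6.728 in the other 3 samples of its group. Its gap to the nearest sample was 0.917 of the group's range, above Dixon's limit for 4 samples. This was 1 flag among 9 members, and chance flags about 1 in 20 groups. The whole range was 0.0871 log2 units.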

How the results depend on the processing

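With limma, 9 of 9 members kept their direction between the experiments under all alternatives that tested them. Members called lower numbered 6 or 7 throughout. Those called higher, 2 as reported, numbered 1 with arrays centred on their median, 1 after quantile normalisation and 0 with the lowest 50% of probe sets left out, where Nmrk1, Nmnat3 and Nadsyn1 were not tested, and 2 with any 1 array left out. Other NAD genes called higher, 21 as reported, numbered 9 after centring and 9 without the lowest 50% (33 probe sets tested), and 19 to 22 with 1 array left out. Without the lowest 50% of probe sets 8832 were called between the experiments in all, against 16865. No member passed for the change of the genotype difference under any alternative. Its sign turned for Nmnat1 with array weights (0.0056), for Nampt (-0.094) and Nmnat1 (0.13) without the 3 arrays that stand apart, and with single arrays left out for Nampt (-0.17 to 0.52), Nmnat1 (-0.27 to 0.13) and Nmnat3 (-0.18 to 0.084); the cause was not tested. The genotype count over all probe sets, 0 as reported, was 23 with array weights, 4 without wild-type replicate 2 of experiment 1, 2 without wild-type replicate 1 of experiment 2, 2 in experiment 1 alone, and 1 each with the lowest 50% left out, without wild-type replicate 2 and without heterozygous replicate 3 of experiment 2. Replicate numbers did not pair the samples: same-numbered samples correlated at -0.22 to 0.22 in their deviations from the group means. With the replicate number as a block the Nmrk1 genotype difference was 0.38 and its difference between experiments -0.85, members called numbered 2 higher and 7 lower, and other NAD genes 19 and 22. Fitting each experiment or genotype alone gives no interaction, so that alternative has no value for it.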

Other observations

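Choroid plexus and striatal markers belong to tissue beside the hippocampus. Choroid plexus markers (8 of 8 genes measured) averaged 8.33 to 9.86 log2 units in wild-type and 8.35 to 8.69 in Kmt2d+/βGeo samples of experiment 1, and 6.86 to 8.55 and 7.75 to 8.77 in experiment 2. Striatal markers (6 of 8 genes measured) averaged 8.57 to 11.39 and 8.39 to 8.64 in experiment 1, and 8.43 to 8.63 and 8.26 to 8.597 in experiment 2. Endothelial markers (4 of 5 genes measured) averaged 8.603 to 8.87 and 8.73 to 8.83 in experiment 1 and 8.53 to 8.61 and 8.53 to 8.88 in experiment 2, and Alas2, the only blood marker measured of 3, was 6.89 to 7.22 and 6.83 to 7.04 in experiment 1 and 6.71 to 7.24 and 6.496 to 7.10 in experiment 2. Wild-type replicate 2 of experiment 1, the array with high striatal markers, had the lowest value of its group for Nmrk1, Nampt, Nmnat2, Nadk and Sarm1. It had the highest for Nmnat3 and was at neither end for Nmnat1, Nadsyn1 and Nnt. The share of all probe sets for which this array was lowest was not counted.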
